A study of Rattus norvegicus with 11 samples.

Results

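The genes described here are those whose symbol begins with Nduf, the family name of the nuclear genes for respiratory complex I, its assembly factors and a few relatives. They were chosen by symbol alone, and 42 of the 17257 genes in the authors' deposited table carried such a symbol. Total RNA had been sequenced from ventricular myocytes, the contractile cells of the heart, of untreated wild-type Sprague Dawley rats aged 3 to 4 months, with 6 libraries from males and 5 from females. The cells were isolated on a Langendorff apparatus, which perfuses the heart through the aorta, were plated for 45 minutes and were then frozen, and both sexes were handled the same way per the labels. The question was whether male and female myocytes differ in gene expression. Values are mean normalized counts for each sex, and fold changes and their log2 (log2 ratios) are female over male.

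Complex I is the largest enzyme of the mitochondrial respiratory chain. It takes electrons from NADH through a flavin and a chain of iron-sulfur clusters to ubiquinone in its matrix arm, and it pumps protons across the inner membrane in its membrane arm. Core subunits carry out catalysis, accessory subunits surround and stabilize them, and assembly factors help to build the enzyme but are absent from the finished complex. The core of the membrane arm is encoded in mitochondrial DNA and was not analysed here. Heart muscle, which contracts without rest, is among the tissues richest in this enzyme.

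Of the 42 genes, 7 encode core subunits, 26 accessory subunits and 6 assembly factors, and 3 are relatives outside the enzyme. A further 6 gene names on the list of roles (Ndufa3, Ndufa13, Ndufb1, Ndufc1, Ndufaf2 and Ndufaf8) matched no row and were not analysed here. Ndufa1, a small membrane arm subunit, was listed at 0 in both sexes, so 41 genes could be compared. Copies complicate some rows, since the RefSeq names table holds 11 other entries named as copies of Ndufb4, 7 of them pseudogenes, and 5 pseudogenes of Ndufaf4. The same table gives Ndufs6 as an older symbol of a pseudogene and Ndufa10 as an older symbol of Ndufa10l1, and reads of such copies may have been divided between rows.

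The promoters of the 4 members that passed the test between the sexes, and of Ndufa4l2, the member with the largest difference upward, are shown because the results below turn on these genes. Each is the stretch of 250 bases before the RefSeq start in the build GRCr8, written 5′ to 3′ along the gene's strand. Capitals mark matches, on either strand, to 6 short motifs: GCGCATGC for NRF1, CCGGAAG for the ETS factor GABP, ATGGCGG for YY1, AAGGTCA for estrogen-related receptors, ACGTG for hypoxia-inducible factors and TGACG, the core of a cyclic AMP response element.
Ndufs8, chr1:210573699-210573948, minus strand: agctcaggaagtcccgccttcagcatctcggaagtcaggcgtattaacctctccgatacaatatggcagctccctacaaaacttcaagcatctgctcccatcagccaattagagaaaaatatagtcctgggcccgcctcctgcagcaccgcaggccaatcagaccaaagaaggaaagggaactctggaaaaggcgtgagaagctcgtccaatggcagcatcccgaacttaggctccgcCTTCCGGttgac
Ndufa7, chr7:15311196-15311445, plus strand: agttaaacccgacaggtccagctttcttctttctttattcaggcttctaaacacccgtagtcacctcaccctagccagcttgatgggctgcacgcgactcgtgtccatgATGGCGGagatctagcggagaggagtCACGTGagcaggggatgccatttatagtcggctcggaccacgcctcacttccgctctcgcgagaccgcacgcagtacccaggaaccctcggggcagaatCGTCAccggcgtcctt
Ndufaf3, chr8:118141724-118141973, minus strand: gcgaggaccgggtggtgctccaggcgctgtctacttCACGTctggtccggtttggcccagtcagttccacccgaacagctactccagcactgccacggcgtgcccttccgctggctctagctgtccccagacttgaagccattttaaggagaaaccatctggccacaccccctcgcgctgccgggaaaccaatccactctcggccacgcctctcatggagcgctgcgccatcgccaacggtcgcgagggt
Ndufaf4, chr5:43401545-43401794, plus strand: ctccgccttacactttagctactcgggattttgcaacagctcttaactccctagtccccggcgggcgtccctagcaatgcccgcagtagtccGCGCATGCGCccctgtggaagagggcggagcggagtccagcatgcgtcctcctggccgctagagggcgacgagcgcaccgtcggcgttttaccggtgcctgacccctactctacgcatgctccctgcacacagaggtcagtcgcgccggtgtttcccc
Ndufa4l2, chr7:65241919-65242168, plus strand: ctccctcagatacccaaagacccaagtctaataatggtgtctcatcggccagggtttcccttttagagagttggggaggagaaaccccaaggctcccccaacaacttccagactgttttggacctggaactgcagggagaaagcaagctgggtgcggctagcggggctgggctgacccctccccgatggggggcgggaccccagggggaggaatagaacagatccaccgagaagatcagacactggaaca
The Ndufs8 promoter held an ETS match starting 12 bases before the start, and that of Ndufa7 a YY1 match at 141 bases, overlapping ACGTG matches on both strands at 115 and 114 bases and a TGACG match at 16 bases. In Ndufaf4 a pair of overlapping NRF1 matches, on opposite strands, began 158 and 156 bases before the start. The Ndufaf3 stretch held a single match, to the ACGTG motif, and the Ndufa4l2 stretch held none of the 6. These are matches of letters only, and binding was not measured.

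Promoters were at hand for 36 of the 41 compared genes. In windows of 300 bases, which add the 50 bases after the start, the YY1 letters were present in 9 of the 36 (25%), against 11.2% of 7028 genes whose overall mean was 50 or more and 5.22% of all 27457 promoters. The NRF1 letters were present in 4 of them (11.1%: Ndufa6, Ndufa11, Ndufaf4 and Ndufaf5), against 5.58% and 2.66%. For the ETS letters the shares were 16.7%, 18.9% and 9.22%. The letters of the estrogen-related receptor site were found in 11.1% of the members, 2.58% of the genes whose mean was 50 or more and 4.37% of all promoters. The ACGTG letters had shares of 27.8%, 27.1% and 19.7%, and TGACG shares of 47.2%, 33.8% and 22%. Base composition was also set beside the difference between the sexes. Across the 36 genes Spearman's rho between GC content and log2 fold change was -0.053, and across the 7028 genes it was -0.025, where genes share libraries and are not independent replicates.

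Calls among the complex I genes are given beside the share over all genes, and the difference between these shares was not tested. Of the 41 genes, 4 passed the threshold of 0.05 on the adjusted p of the authors' deposited table, which is 9.76%, against 14.5% of all 13346 genes tested. Ndufs8, Ndufa7 and Ndufaf3 were higher in females, where 6.71% of all genes were, and Ndufaf4 was higher in males, where 7.76% were. Among all genes whose overall mean was 1000 or more the share was 27.1% of 3573, and 4 of the 37 members at that level, 10.8%, were called. The 41 genes had a median log2 ratio of 0.025, and that of 10518 genes whose mean was 10 or more was -0.0038. In such bulk samples fewer cells of a type and less RNA per cell cannot be told apart. By direction alone, 22 members had a higher mean in females and 19 in males. The summed means of the 32 measured subunits were 524581 in males and 538811 in females, a ratio of 1.03. The same ratio was 0.902 over all genes and 0.898 over genes whose mean was 1000 or more. Such sums follow the most abundant genes, and the median log2 ratio of the genes at 1000 or more was -0.022. For the 43 measured nuclear genes of complexes II to V the ratio of sums was 1.02.

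**Figure D1:**
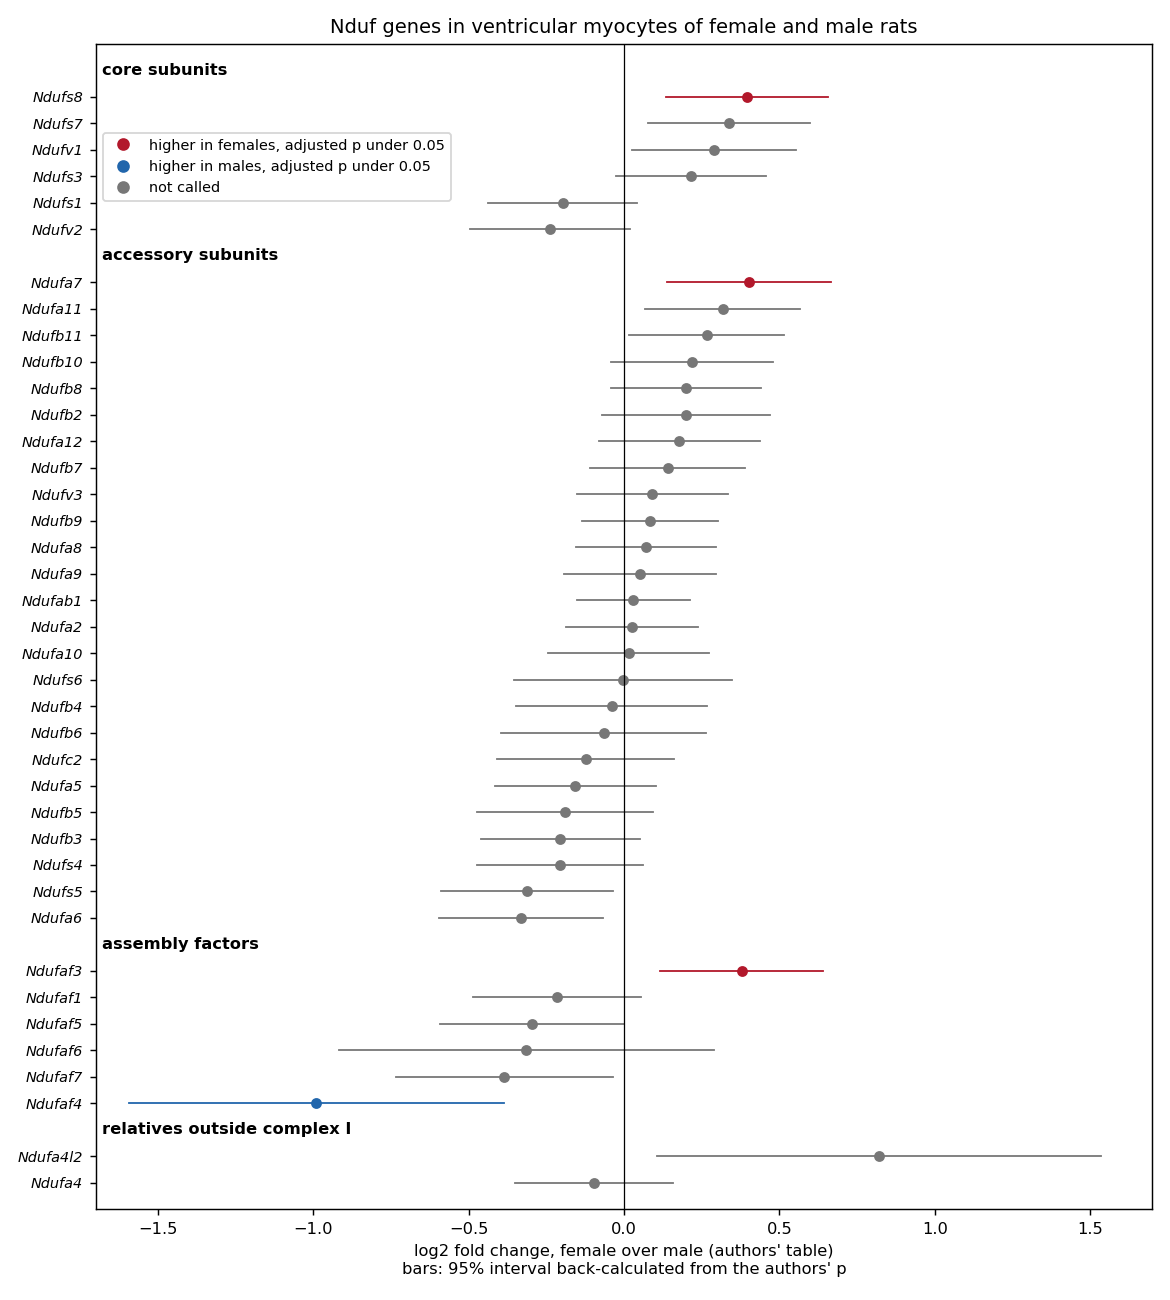
Log2 fold change (female over male, horizontal axis) of the measured Nduf genes described here in the authors' deposited table, grouped by role, with bars for a 95% interval back-calculated from the authors' p. Red points passed an adjusted p of 0.05 with higher female means and the blue point with a higher male mean. Ndufa10l1 is left out because its interval, from -2.23 to 1.90, runs past the axis. Most points lie within 0.4 of zero, and Ndufaf4 and Ndufa4l2 lie farthest out.

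Of the 7 core subunits 1 was called (14.3%, against 14.5% of all genes tested), and it was higher in females. Ndufs8, which carries iron-sulfur clusters near the ubiquinone site, rose from a male mean of 4975 to a female mean of 6547, a log2 ratio of 0.40 with adjusted p = 0.0267 in the authors' deposited table. A 95% interval back-calculated from that p ran from 0.14 to 0.66. Next to it in size was Ndufs7, which holds the last cluster of the chain and lines the ubiquinone site. Its means were 8865 and 11203, with a log2 ratio of 0.34 and adjusted p = 0.0680 in the authors' deposited table, so it missed the threshold. Ndufv1, the subunit that binds NADH and the flavin, had means of 17061 and 20852 and a log2 ratio of 0.29 with adjusted p = 0.133 there.

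No other core subunit described here was called. Ndufs3, a subunit of the matrix arm, had authors' means of 13891 and 16111 and a log2 ratio of 0.21, with adjusted p = 0.258. A further pair lay on the male side. Ndufs1, the largest subunit, had authors' means of 44313 and 38640, a log2 ratio of -0.20 and adjusted p = 0.304. Ndufv2, the partner of Ndufv1 at the NADH end, had authors' means of 38324 and 32472, a log2 ratio of -0.24 and adjusted p = 0.227. Ndufv1 and Ndufv2, which work as a unit, thus had differences of opposite sign, neither of which passed the test.

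Among the 25 measured accessory subunits 1 was called, which is 4.00% against 14.5% of all genes tested, and the median log2 fold change was 0.030. Ndufa7, a subunit of the matrix arm, rose 1.32-fold, the authors' means being 2470 and 3266, with adjusted p = 0.0262 in the authors' deposited table. The interval of its log2 ratio of 0.40 ran from 0.14 to 0.67, and RefSeq lists 2 pseudogenes of it. At the other end, Ndufa6, also of the matrix arm, had an authors' male mean of 15218 and female mean of 12091, with a log2 ratio of -0.33 and adjusted p = 0.0765. The log2 fold changes of the remaining matrix arm accessory subunits (Ndufa2, Ndufa5, Ndufa9, Ndufa12, Ndufs4, Ndufs6 and Ndufv3) ran from -0.21 for Ndufs4, the subunit whose loss causes Leigh syndrome, to 0.18 for Ndufa12 in the authors' deposited table. Ndufab1, the mitochondrial acyl carrier protein that is present in both arms and also serves fatty acid synthesis, had authors' means of 7968 and 8134, a fold of 1.02.

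No member of the membrane arm was called among 15 measured, where 14.5% of all genes tested were. Of these 15, 3 had an unadjusted p under 0.05. Ndufa11, which sits where complex I meets complex III in supercomplexes, had the largest difference, with authors' means of 17465 and 21769 and adjusted p = 0.0717. Ndufb11, which the RefSeq table places on the X chromosome, had authors' means of 8606 and 10350, a log2 ratio of 0.27 and adjusted p = 0.148. On the male side the largest difference was in Ndufs5, with authors' means of 9045 and 7279, a log2 ratio of -0.31 and adjusted p = 0.119. The 10 measured genes of the Ndufb series ran from -0.20 (Ndufb3) to 0.27 (Ndufb11) (log2) in the authors' deposited table. Ndufb9 had authors' means of 75556 and 80057. Counts were not divided by transcript length, so levels of different genes were not compared. As medians, the 16 matrix arm subunits had a log2 ratio of 0.071 and the 15 of the membrane arm 0.070.

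The range of log2 ratios was widest among assembly factors, through Ndufaf4 alone, and the next lowest factor, Ndufaf7, was at -0.39. Ndufaf4 fell from an authors' mean of 2488 in males to 1253 in females, a fold of 0.504 and a log2 ratio of -0.99, with adjusted p = 0.0170. Ndufaf3, the factor with which the protein of Ndufaf4 works at an early step of matrix arm assembly, went the other way. Its authors' means were 3281 and 4266, a rise with a log2 ratio of 0.38 with adjusted p = 0.0368. The back-calculated 95% intervals of this pair were -1.59 to -0.39 for Ndufaf4 and 0.12 to 0.64 for Ndufaf3. Because both genes passed the test in opposite directions, these intervals had to be separate, and this is no further test. The difference between the genes was not tested. RefSeq lists 5 pseudogenes of Ndufaf4, so its counts are uncertain, and none of Ndufaf3.

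The other 4 assembly factors all had lower female means and none was called. Ndufaf7, a mitochondrial methyltransferase, had authors' means of 523 and 400.1, a log2 ratio of -0.39 and adjusted p = 0.132. Ndufaf6 had authors' means of 456 and 366, a log2 ratio of -0.31 and adjusted p = 0.590. Ndufaf5, which hydroxylates the Ndufs7 protein, had a log2 ratio of -0.30 and Ndufaf1, which helps to assemble the membrane arm, one of -0.22, with adjusted p = 0.182 and 0.328 in the authors' deposited table. The median of the 6 factors was -0.31 on the log2 scale. With 2 of 6 called in opposite directions (33.3%, against 14.5% of all genes tested), their count describes these 6 genes only.

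The 3 relatives are Ndufa4, whose protein was long counted with complex I and is now placed in complex IV, its paralogue Ndufa4l2, a gene known to be induced by low oxygen, and Ndufa10l1, a close copy of the accessory subunit gene Ndufa10. Ndufa4 had authors' means of 21481 and 20091, with adjusted p = 0.733. Ndufa10l1 had authors' means of 708 and 630.1 and adjusted p = 0.980, and Ndufa10 itself had means of 12229 and 12357.

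Ndufa4l2 had the lowest mean of the 41 compared genes and was the only one for which reads in each library could be recovered from the digits of the group means. Each library so recovered has a sex and a size factor but no replicate number, and letters follow falling size factors. In the males the normalized read counts were 29.8, 36.2, 26.7, 55.8, 31.7 and 50.5 in libraries a to f, from 26 to 54 reads each. In the females they were 59.0, 43.4, 116.7, 72.0 and 48.4 in libraries a to e, from 47 to 122 reads each. The sexes overlapped, with male libraries d and f above female libraries b and e, and female library c stood highest of all. The male mean was 38.5 ± 11.9 (SD, n = 6) and the female mean 67.9 ± 29.4 (SD, n = 5), a fold of 1.77.

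The exact permutation test (two-sided, all 462 divisions of the libraries) gave p = 0.0238 for Ndufa4l2. Adjusted by Benjamini-Hochberg over the 1155 genes tested in this way it was 0.264, and the authors' adjusted p was 0.112, so the difference failed the correction. On simulated data no 2-fold change passed this exact permutation test after adjustment. Without female library c the fold was 1.45 and the exact permutation p was 0.0667. Mural cells, the pericytes and smooth muscle of vessels, are known for high Ndufa4l2. Their marker list summed to an authors' male mean of 4361 and female mean of 4036, with 0 of 4 genes called, against 14.5% of all genes tested. The sum was lower in females through Rgs5 alone (log2 ratio -0.46), while Pdgfrb, Myh11 and Acta2 had higher female means (0.32, 0.28 and 0.24), and the median of the 4 was 0.26 in the authors' deposited table. Their part in the Ndufa4l2 values was not tested.

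**Figure D2:**
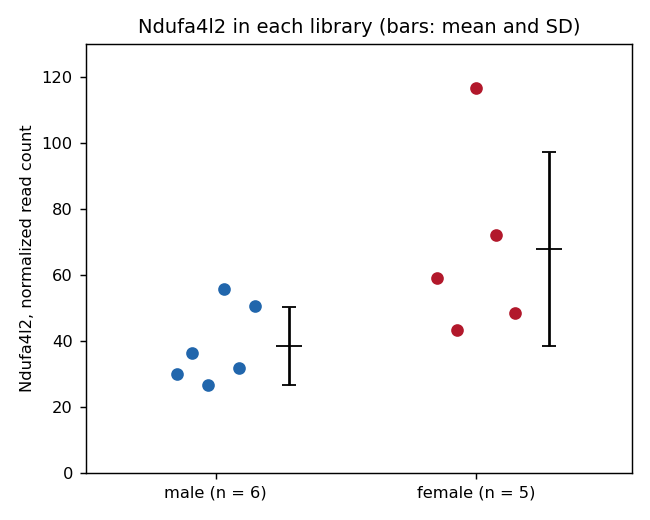
Normalized read count of Ndufa4l2 (vertical axis) in each of 6 male and 5 female libraries, with the mean and SD beside each group. The male libraries lie between 26.7 and 55.8 and the female libraries between 43.4 and 116.7, so the groups overlap.

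For the other members no value per library was at hand, and only an approximate spread was taken from the fold change and p together. It is a value of the authors' fit and not a spread measured between libraries. Dividing the absolute log2 fold change by the normal deviate of the authors' p gives an approximate standard error. In 1134 genes with recovered reads this value was a median of 1.24 times the standard error computed from the libraries. The quartiles of this ratio were 1.05 and 1.53, and for Ndufa4l2 the back-calculated and library values were 0.36 and 0.33. Reads were recovered only up to a male mean of 40 and a female mean of 100. That comparison therefore does not cover the levels of the subunits. Subunits had standard errors from 0.093 to 0.18 on the log2 scale, with a median of 0.13, against a median of 0.15 for 3572 genes whose mean was 1000 or more. In the authors' deposited table the subunits that passed the test, Ndufs8 and Ndufa7, had folds of 1.32, and the largest fold upward among those that missed it was the 1.26 of Ndufs7. Ndufaf4 and Ndufaf6 were wider, at 0.31 each. Among 2575 genes within 2-fold of its mean, 97.4% had a smaller standard error than Ndufaf4. Ndufa10l1 stood farthest out at 1.05, where 99.7% of the 3384 genes within 2-fold of its mean were below it. The division is unstable where p is near 1, and the authors' p was 0.873 for Ndufa10l1. The ends of the subunit range, Ndufab1 and Ndufs6, likewise had authors' p of 0.750 and 0.984, so these values are poorly determined.

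**Figure D3:**
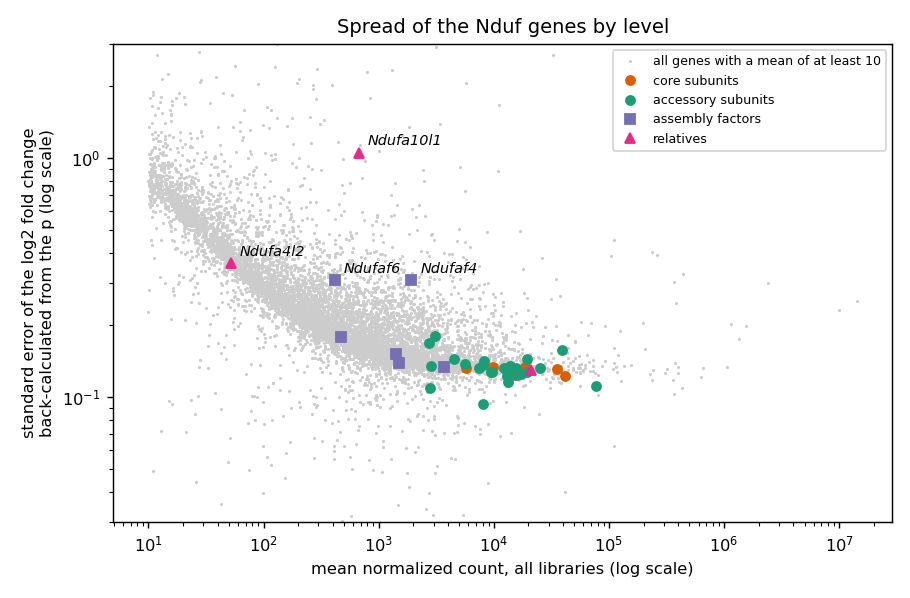
Standard error of the log2 fold change, back-calculated from the authors' p (vertical log axis), against the overall mean normalized count (horizontal log axis) for all genes whose mean was 10 or more (grey) and for the Nduf genes by role. Subunits lie between 0.093 and 0.18, whereas Ndufaf4, Ndufaf6 and Ndufa10l1 lie above most genes of their level. A few grey points fall outside the vertical range.

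Assembly of complex I also needs proteins without the family name. Of 13 such genes listed, 11 were measured. By direction 4 had higher and 7 lower female means, and 1 was called (9.09%, against 14.5% of all genes), lower in females. This was Tmem70, better known for building complex V, with authors' means of 1653 and 1249 and adjusted p = 0.0422. Ecsit and Acad9, which join Ndufaf1 in assembling the membrane arm, had log2 ratios of 0.27 and -0.05 with adjusted p = 0.174 and 0.883 in the authors' deposited table. Aifm1 and Lyrm2 had log2 ratios of -0.32 and -0.34, with adjusted p = 0.0812 and 0.117 there. The median of the 11 was -0.064 on the log2 scale.

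Iron-sulfur clusters, which the core subunits carry, are made by a separate mitochondrial pathway. Of 12 measured genes of that pathway 1 was called (8.33%, against 14.5% of all genes). By direction 10 of the 12 had lower female means, and of all genes with a finite log2 ratio 6252 had lower and 6063 higher female means. Fdxr, the reductase that feeds electrons to the pathway and to steroid synthesis, rose 2.05-fold, the authors' means being 74.8 and 153, with adjusted p = 0.0156. The chaperone genes Hscb and Hspa9 had log2 ratios of -0.47 and -0.32 and missed the threshold, with adjusted p = 0.0505 and 0.0772 in the authors' deposited table. Nfs1, which supplies the sulfur, was listed at 0.

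Regulators of mitochondrial gene expression held calls in both directions. Of 14 genes 7 were called, which is 50%, with 4 higher and 3 lower in females. Of all genes tested 14.5% were called, of the 9116 genes whose mean was 50 or more 20.5%, and of those at 1000 or more 27.1%. The list was chosen with earlier results of these data known, so its share is no test of the group. The coactivator Ppargc1a, of the same family as the next pair, had authors' means of 3503 and 2850, a log2 ratio of -0.30 and adjusted p = 0.206. The coactivators Ppargc1b and Pprc1 rose by 0.54 and 0.48, the receptor Esrrb by 0.65 and the mitochondrial RNA polymerase Polrmt by 0.57 (log2) in the authors' deposited table. Gabpa, the DNA-binding part of GABP, fell from an authors' mean of 1739 to 1016, and Tfb2m and Tfam, which start transcription of mitochondrial DNA together with Polrmt, fell by 0.55 and 0.42 (log2) in the authors' deposited table. Their adjusted p-values ran from 0.00496 for Gabpa to 0.0421 for Tfam. Esrra had a log2 ratio of 0.29 with adjusted p = 0.158, and Nrf1 and Yy1 had log2 ratios of -0.06 and -0.11, with adjusted p = 0.940 and 0.672 in the same table.

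The nuclear genes of the other complexes are given for comparison. Of 43 measured nuclear genes of complexes II to V, 5 were called, which is 11.6% against 14.5% of all genes, with 2 higher and 3 lower in females. The median log2 fold change was 0.0067 for complex III, 0.13 for complex IV and 0.043 for complex V, beside 0.061 for the 32 complex I subunits. In the authors' deposited table the subunit of complexes II to V with the largest rise was Atp5d, with a log2 ratio of 0.57, and the largest fall was that of Cox6c, at -0.61. The 32 subunits of complex I ran from -0.33 to 0.40.

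**Figure D4:**
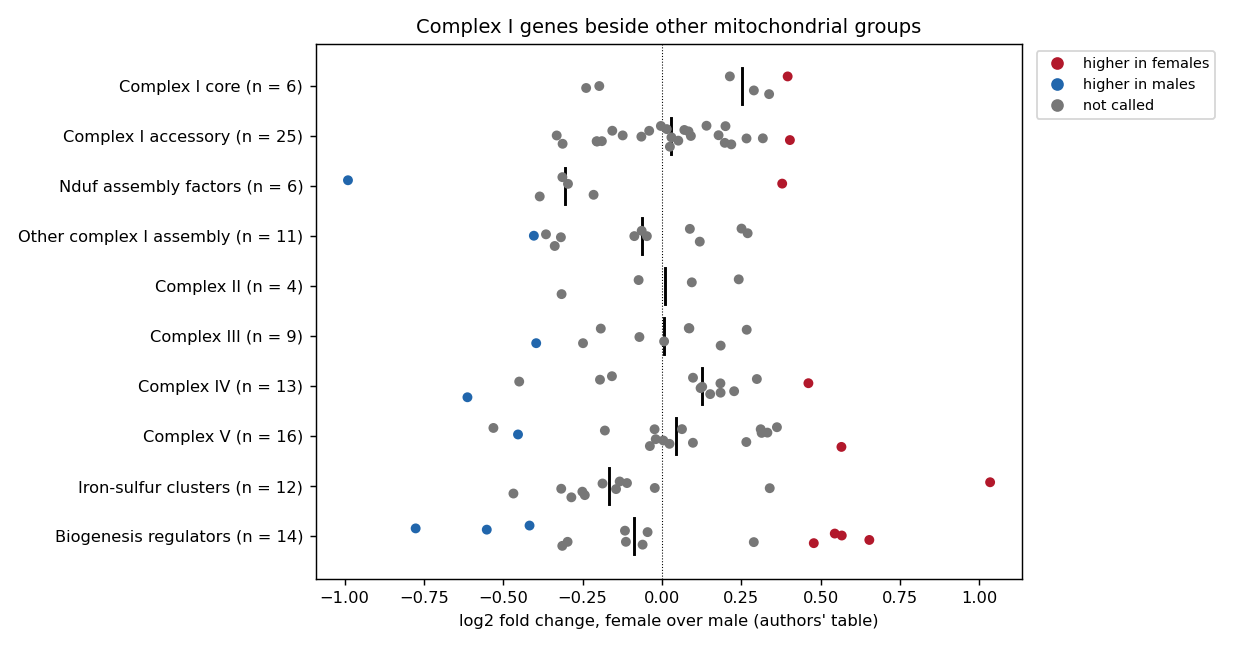
Log2 fold change (female over male, horizontal axis) of genes whose mean was 10 or more in the authors' deposited table, in 10 mitochondrial groups, with a black line at each median and vertical scatter added only to separate points. Colours mark the call at an adjusted p of 0.05. Complex I subunits lie between -0.33 and 0.40. The biogenesis regulators, a list chosen with earlier results known, have 7 of 14 points coloured, where 14.5% of all genes tested were called.

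The preparations were checked against markers of cell type. All 8 myocyte markers were present, from authors' means of 98148 for Ryr2 to 831771 for Myh6 in males, and 2 of them, Myh6 and Ryr2, were called higher in females. Markers of other cells were also counted, and their calls stand beside 14.5% of all genes tested. Fibroblast markers summed to 17413 in males and 8500 in females in the authors' deposited table, with Col1a2 listed at 0. Of 4 measured genes 2, the collagens Col3a1 and Col1a1, were called lower in females, Col3a1 with authors' means of 10722.5 and 3915. Dcn and Pdgfra had lower female means but were not called, with the authors' adjusted p = 0.524 and 0.483. Endothelial markers summed to 13729 and 14454, with 1 of 5 called (Vwf, higher in females). Leukocyte markers summed to 896 and 711, with 0 of 5 called. Mesothelial markers summed to 467 and 528, with 1 of 2 called (Msln, higher in females), while Wt1 was lower in females and not called. Their part in the complex I values was not tested.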

How the data were processed

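The deposited table holds, for each gene, mean normalized counts, a signal made by the authors by dividing read counts by size factors, over all libraries and over groups named A and B. The authors also gave a fold change, a linear ratio, with its log2 value and a deposited p-value with its adjusted value, per the file headers. Named with no order are TopHat2 2.0.12, HTSeq 0.6.1, Trimmomatic 0.32, FastQC, DESeq and build rn6, per the submitters' processing notes. The gene annotation and strand setting are not given in the sources used here. Libraries were depleted of ribosomal RNA and stranded, per the labels' protocols.

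In all 13346 tested genes weights of 6 for A and 5 for B gave the mean over 11 libraries (relative tolerance 1e-09), so A was read as males and B as females. The summed means were 62790900 in males and 56624100 in females, and the depth of each library is unknown. The size factors recovered ran from 0.811 to 1.17 in males and from 0.972 to 1.14 in females. Calls are the authors' adjusted p under 0.05, from DESeq across all genes. Medians used genes whose mean was 10 or more.

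Whole reads per library were searched for in the group means (male mean up to 40, female up to 100, relative tolerance 1.5e-14). All 3498 male and all 4487 female searches ended in a single solution. Near the limits, 4 of 150 male and 4 of 200 female totals that had been shifted off whole reads also gave a solution. Genes with recovered reads and a mean of at least 10 were compared with an exact permutation test and with limma 3.58.1 in R 4.3.3 on log2 of the normalized count plus 1. On simulated data, 79.0% of genes changed 2-fold had an exact permutation p under 0.05, but 0.0% passed after adjustment, against 99.0% of genes changed 4-fold, so this test could not pass a 2-fold change in 1155 genes. None of the 1155 genes passed after adjustment, on either scale of the exact test, and 158 had an unadjusted p under 0.05. By limma 2 passed and 163 had an unadjusted p under 0.05. The smallest p the exact permutation test allows is 0.00216.

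All Nduf rows were eligible to be named, with full values for core subunits, called members, the 4 largest and 4 smallest log2 fold changes and the member with recovered reads. In other lists, called genes and up to 3 more with the smallest p were eligible, and those given outside that rule (Acad9, Nrf1, Yy1, Nfs1, Col1a2) were chosen for their known roles or because they are listed at 0. Some further members (Ndufab1, Ndufb9, Ndufb11, Ndufa4, Ndufa10, Ndufa10l1, Ndufaf1, Ndufaf5) are given for their roles. Ndufa11 and Ndufs5 are given for the size of their differences within the membrane arm. Ndufs4, Ndufs6, Ndufa12 and Ndufb3 are given as ends of ranges. The values of 1 core subunit are not reported here, and it is left out of the plots. Rows were taken as members by symbol, without use of their values. Earlier results of these data were known when members and lists were chosen. RefSeq (GRCr8) matched 42 of 42 members by symbol and gave promoters for 37, and its coordinates belong to another build than the counts. The series design text calls the libraries biological replicates.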

Additional observations from a re-analysis of the deposited data

How the results depend on the processing

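The count of called complex I genes followed the threshold. At 0.01 on the authors' adjusted p, 0 of 41 passed, 0 in each direction, with 13 at an unadjusted p under 0.05, and at 0.10 there were 7, with 5 higher in females and 2 higher in males, the additions being Ndufs7, Ndufa11 and Ndufa6. Adjusting again over genes whose mean was 50 or more gave 5, with Ndufs7 added, and over genes whose mean was 10 or more gave the same 4. Adding rows under older symbols also left 4, as did leaving out Ndufa4 and Ndufa4l2, which could not change the count because neither was called. The filters on the mean could not move the medians of accessory subunits and assembly factors, since every measured member has a mean above 50. Subtracting the median of all genes whose mean was 50 or more (-0.0028) shifted them by that amount only. Without Ndufaf4, an alternative chosen after seeing the data, the median of the assembly factors moved by less than 0.05 on the log2 scale. For complexes II to V, called genes numbered 2 at 0.01 and 12 at 0.10. For Ndufa4l2, leaving out each library in turn gave exact permutation p-values from 0.0190 to 0.0667, above 0.05 without male library a, b, c or e or female library c. On log2 of the normalized count plus 1 the exact permutation p was 0.0281 and limma's unadjusted p was 0.0188, with adjusted p = 0.263. No paired analysis was possible because the table holds group means and the recovered libraries carry no replicate number. Levels per coding length were not computed, since no transcript lengths were used here. Ndufa4l2 rests on 26 to 122 reads a library.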

Other observations

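Ndufaf4 was singled out after its value was seen. Among 36 genes within 2-fold of its mean and within 0.1 of its absolute log2 fold change, 33 were called in the authors' deposited table and 25 had a smaller adjusted p than Ndufaf4, with a median of 0.00748 against 0.0170. Its fold of 0.504 thus stood with a larger back-calculated standard error than most genes of that level, 0.31 against a median of 0.15. Reads per library were not recovered at means of this size.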
